A study of Homo sapiens with 6 samples.

Results

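The passage of a cell from G1 into S phase is driven by cyclins and the kinases they activate. The D-type cyclins CCND1, CCND2 and CCND3 bind CDK4 or CDK6, and these complexes phosphorylate the retinoblastoma protein and its relatives, which hold back the E2F transcription factors. The E-type cyclins CCNE1 and CCNE2 are themselves E2F targets, bind CDK2 and complete the phosphorylation as DNA replication begins. In the ovary, FSH raises D-type cyclin expression in GCs, and follicle growth depends on their division.

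These 8 genes were examined in COV434 cells, an immortalized human cell line used as a model of GCs. The members were all the G1 cyclins and their kinases named above, found by symbol among the 16798 genes of the gene table. All 8 were listed, and 7 of them had enough counts for a test, as did 12368 genes in all. Total RNA was sequenced from 3 control samples and from 3 samples exposed to 4HC (15 µM for 24 h), which is an activated form of the drug CTX, or cyclophosphamide. A COV434 culture is a single line without follicle structure or an oocyte. The sources do not say whether the 3 samples of a group were separate cultures, so p-values measure the spread between these samples, which may be technical. The comparison asks how 4HC changed the RNA of the G1 machinery.

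The depth of the 6 libraries was even, at 16133786 to 16702316 expected counts, which are estimates of the reads from each gene. No call was made for the GC markers: of 12 listed genes, 11 were in the table, 3 could be tested and 0 passed the test. AMH was at 5.19 CPM (counts scaled to library size, TMM-normalized) in control and 5.27 CPM in 4HC, and HSD17B1 at 14.2 and 14.1 CPM. The defining markers FOXL2, FSHR, CYP19A1, STAR, NR5A1 and GATA4 had mean levels of at most 0.082 CPM in either group, so these markers of the labelled cell type were absent or nearly so. The markers of theca, endothelium and germ cells, CYP17A1, PECAM1 and DDX4, were at most at 0.040 CPM. In the stromal marker COL1A1 the means were 0.918 and 1.24 CPM, and in the leukocyte marker PTPRC 1.61 and 1.81 CPM, and neither passed the test.

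CCNE2 and CDK2 were upregulated and CCND3 was downregulated in 4HC-treated cells. CCNE2 rose 1.51-fold, CDK2 rose 1.36-fold, and CCND3 fell to 0.819 of its control level. CCND1, CCNE1, CDK4 and CDK6 did not pass the test, and CCND2 had too few counts to be tested. The test was edgeR's quasi-likelihood test with a Benjamini-Hochberg adjusted p under 0.05 over all genes tested. Of the 7 tested members 3 were called, or 42.9%, where 36.4% of all tested genes were called. By direction, 2 members were higher, beside 19.2% of all genes, and 1 was lower, beside 17.1% of all genes. The share of members called was therefore near that of the transcriptome. The study's threshold asks for a change of 2-fold or more with an unadjusted p under 0.05. Applied here to the edgeR fit, it called 0 members and 1.15% of all tested genes. The study used DESeq2 and reported many more genes at this threshold, so 1.15% is not the study's own share. The groups did not overlap in CPM for 4 tested members (CCND3, CCNE1, CCNE2 and CDK2), and the same held for 45.3% of all genes tested. The largest change of a called member was 0.60 on the log2 scale, and the median size over all called genes was 0.23. In bulk RNA, a change in the share of cells at a given phase and a change in RNA per cell cannot be told apart.

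**Figure D1:**
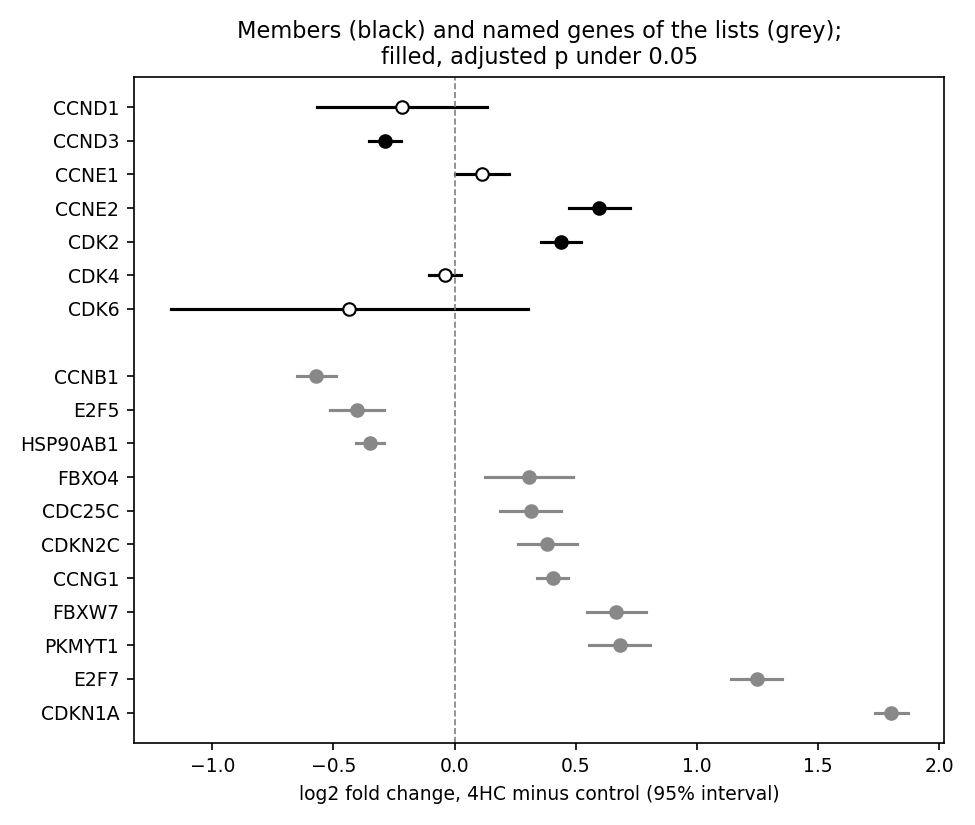
Log2 fold change of 4HC over control (horizontal axis) for the 7 tested members in black and for the named genes of the pathway lists in grey, with bars for the 95% interval. Filled points passed an adjusted p under 0.05, and CCND3, CCNE2 and CDK2 are the filled members, at -0.29, 0.60 and 0.44.

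The members differed from each other far more than the groups did. Levels of different genes were compared as TPM, a deposited unit that is scaled to transcript length and to the same sum in each sample. In both groups the order of mean TPM from high to low was CCND3, CDK4, CDK2, CCNE1, CCNE2, CCND1, CDK6 and CCND2, and the ranges of neighbours in this order did not overlap in either group. CCND3 stood at the 99.0 percentile of the mean TPM of genes above 0, CDK4 at 97.7 and CDK2 at 90.4. CCNE1 was at the 78.4 percentile and CCNE2 at 64.3. CCND1 (34.2), CDK6 (18.4) and CCND2 (7.84) were in the lower part of the distribution. CCND3 and CDK4 were thus far above the other D-type cyclins and CDK6.

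**Figure D2:**
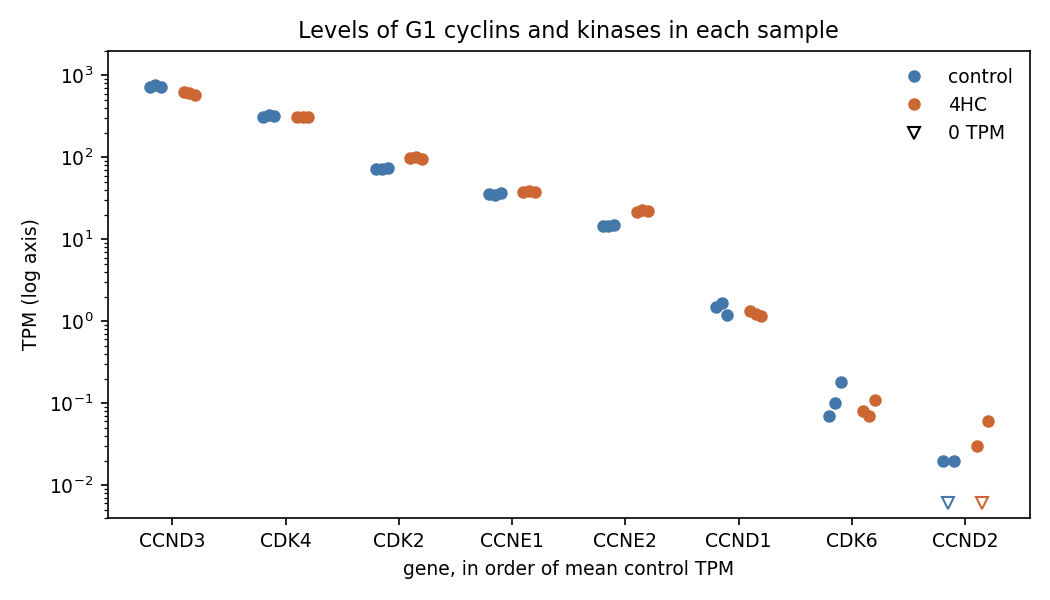
TPM on a log axis (vertical) for each member in each of 3 control and 3 4HC samples, with genes in order of mean control TPM. CCND3 is near the top of the axis at 572 to 767 TPM, CDK6 is at 0.07 to 0.18 TPM, and triangles mark the samples in which CCND2 is listed at 0.

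CCND3 is transcribed from the minus strand of chromosome 6, at chr6:41934065-42048894 in GRCh38. It was by far the most abundant D-type cyclin RNA. In TPM, the control samples were at 724, 767 and 729 and the 4HC samples at 621, 605 and 572. In CPM, the control samples were at 782, 836 and 779 (799 ± 32.0, SD, n = 3), and the 4HC samples at 673, 665 and 626 (655 ± 25.2, SD, n = 3). Every 4HC sample was below every control sample. The log2 fold change was -0.29 (SE 0.032, 95% interval -0.35 to -0.22), a fall by 18.1%, with an adjusted p of 2.68e-10 in edgeR's quasi-likelihood test. The expected counts behind these values were 12693 to 13580 in control and 10224 to 11145 in 4HC.

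The RNA of CCND3 comes from several starts. Most of its counts belonged to transcripts that begin at a downstream start, inside the long gene, and fewer to those that begin at an upstream start at the far end of the gene. The transcript counts were divided by region, downstream or upstream, and not by exact first base. For each region the bases before a RefSeq start are shown. They come from RefSeq (GRCh38.p14, minus strand), at chr6:41941809-41942058 for the downstream start and chr6:42048689-42048938 for the upstream start, and the capitals mark the GC box (GGGCGG on either strand), a word bound by SP1 and its relatives.
CCND3 downstream start: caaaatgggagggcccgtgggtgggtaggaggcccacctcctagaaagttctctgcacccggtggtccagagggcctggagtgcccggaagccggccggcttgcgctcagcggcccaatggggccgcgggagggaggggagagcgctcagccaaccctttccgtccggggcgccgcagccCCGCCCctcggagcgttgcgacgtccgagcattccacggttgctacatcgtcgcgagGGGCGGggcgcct
CCND3 upstream start: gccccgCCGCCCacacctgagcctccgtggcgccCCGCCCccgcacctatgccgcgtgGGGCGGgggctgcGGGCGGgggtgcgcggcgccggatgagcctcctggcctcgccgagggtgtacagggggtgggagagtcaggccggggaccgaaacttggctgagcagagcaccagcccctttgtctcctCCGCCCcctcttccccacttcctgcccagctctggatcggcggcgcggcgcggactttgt
The printed bases before the downstream start hold 2 GC boxes, and a further 2 lie in the 50 bases after the start that are not printed. Before the upstream RefSeq start there are 5. The counted transcripts begin elsewhere in the GENCODE annotation, NM_001760 at 41941848 and NM_001136126 at 42048894. Both positions lie inside the printed bases, so some of these bases and GC boxes fall within the spans of those transcripts. NM_001136017 begins at 42048968, so its span holds all the printed upstream bases. With the 50 bases after the start included, a GC box is found in 44.9% of 34943 RefSeq promoters of the same length. The GC content of these windows was 73.7% at the downstream and 72.3% at the upstream start. Another RefSeq window of the downstream region, at chr6:41939156-41939455, is not printed. It held 0 GC boxes and had a GC content of 60.3%.

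The downstream start took 84.2%, 82.7% and 82.9% of the CCND3 counts in the control samples and 84.7%, 84.7% and 84.6% in the 4HC samples. The upstream start took 12.0%, 13.4% and 12.6% in control and 11.2%, 11.0% and 11.5% in 4HC. The groups did not overlap for either start, and the upstream share differed by -1.44 percentage points. The two-sided exact permutation test gave p = 0.1, which is the smallest value that 3 samples against 3 allow. The lower upstream share came from NM_001136126, which went from 8.51% of the counts in control to 6.85% in 4HC. NM_001136017, also of the upstream start, went from 4.17% to 4.38%, so the difference was not common to the upstream transcripts. The remaining 3.82% to 4.49% of counts came from 2 transcripts without a match in the GENCODE annotation.

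Among the 8 listed transcripts of CCND3, NM_001760 held 80.7% of the gene's counts in control and 82.4% in 4HC. It has 5 exons, begins at the downstream start and encodes the cyclin of 292 residues. Its mean expected count was 10538 ± 377 (SD, n = 3) in control and 8830.0 ± 421 (SD, n = 3) in 4HC. Its log2 fold change of -0.26 (SE 0.044) had an adjusted p of 0.069 in edgeR over all transcripts. NM_001136126, which begins at the upstream start and encodes only 96 residues, had 1026, 1150 and 1157 counts in control and 807, 711 and 686 in 4HC. It was the called transcript of CCND3, with a log2 fold change of -0.60 (SE 0.075) and an adjusted p of 0.030 in edgeR. Counts of transcripts that share exons are estimates of how reads divide among them.

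CCND1 lies at chr11:69641123-69658430 (GRCh38) and encodes the D-type cyclin amplified in many tumours. It had 61, 69 and 50 counts in the control samples and 56, 51 and 48 in the 4HC samples. In CPM these were 3.76, 4.25 and 3.02 in control and 3.38, 3.15 and 2.94 in 4HC. The groups overlapped, and the log2 fold change of -0.22 (SE 0.174, 95% interval -0.57 to 0.13) had an adjusted p of 0.347 in edgeR. It was -0.10 without the second control sample and -0.34 without the third, and passed the test in neither case. All of its counts were given to a single transcript, NM_053056.

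CCND2, the D-type cyclin that FSH induces in GCs of the ovary, lies at chr12:4273762-4308750 (GRCh38). It had 1, 0 and 1 counts in control and 2, 0 and 4 in 4HC. A count of 0 allows up to 3 counts in a library, so no difference was detectable at this depth and no fold is given. CCND3 made up 99.8% of the summed D-type cyclin TPM in each of the 6 samples, and CCND1 made up 0.164% to 0.217%. The summed D-type TPM was therefore that of CCND3, at 725, 769 and 730 in control and 622, 606 and 574 in 4HC.

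CDK4 lies on the minus strand at chr12:57747727-57752353 (GRCh38) and was the more abundant of the kinases that bind D-type cyclins. Its CPM was 314, 336 and 324 in control (325 ± 11.0, SD, n = 3) and 315, 318 and 314 in 4HC (316 ± 2.26, SD, n = 3). The groups overlapped. The log2 fold change was -0.04 (SE 0.033) with an adjusted p of 0.372 in edgeR, and its 95% interval was -0.11 to 0.03. Without the first control sample the log2 fold change was -0.065 and without the second -0.015, and library size as the only scaling gave -0.019, none of which passed the test. TSPAN31, a tetraspanin gene on the opposite strand, shares 2493 bases with CDK4, and whether the counting used strand is not given in the sources used here. TSPAN31 was at 24.0 CPM in control and fell to 20.8 CPM with 4HC (log2 fold change -0.21, adjusted p of 0.022 in edgeR), at a level far below that of CDK4.

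CDK6, the other kinase that binds D-type cyclins, lies on the minus strand at chr7:92604921-92836573 (GRCh38). It had 8, 12 and 22 counts in control and 10, 8 and 13 in 4HC. The log2 fold change of -0.44 (SE 0.367, 95% interval -1.17 to 0.30) had an adjusted p of 0.374 in edgeR. It turned to 0.034 when the third control sample, which had the highest count, was left out, so no direction can be given at this depth. CDK6 was 0.0224% to 0.0557% of the summed CDK4 and CDK6 TPM.

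CCNE2 lies on the minus strand at chr8:94880224-94896671 (GRCh38). It showed the largest change among the called members. Its CPM was 22.2, 22.3 and 22.6 in control (22.4 ± 0.222, SD, n = 3) and 32.5, 35.3 and 33.8 in 4HC (33.9 ± 1.40, SD, n = 3). Every 4HC sample was above every control sample, and the gap was wide beside the spread within either group. The log2 fold change was 0.60 (SE 0.063, 95% interval 0.47 to 0.72), with an adjusted p of 3.2e-11 in edgeR. The expected counts were 360, 363 and 375 in control and 539, 573 and 552 in 4HC.

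Of the 4 listed CCNE2 transcripts, NM_057749, which has 12 exons and encodes 404 residues, held 91.8% of the counts in control and 90.0% in 4HC. Its log2 fold change was 0.57 (SE 0.082, adjusted p of 0.044 in edgeR over all transcripts). CCNE2 overlaps INTS8, a subunit gene of the Integrator complex, by 14441 bases on the opposite strand, and NDUFAF6, a complex I assembly factor gene, by 873 bases. INTS8 had 63.6 CPM in control and 64.6 CPM in 4HC (adjusted p of 0.747 in edgeR), and NDUFAF6 had 8.34 and 8.41 CPM (adjusted p of 0.945 in edgeR). Neither neighbour moved with CCNE2.

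CCNE1 lies at chr19:29811991-29833068 (GRCh38) and was the more abundant E-type cyclin in both groups. Its CPM was 37.2, 36.4 and 37.6 in control (37.1 ± 0.610, SD, n = 3) and 39.8, 40.9 and 39.5 in 4HC (40.1 ± 0.776, SD, n = 3). The groups did not overlap, but the log2 fold change was only 0.11 (SE 0.055, 95% interval 0.00 to 0.22). The unadjusted p was 0.049, and the adjusted p of 0.111 in edgeR missed the threshold. With limma on log2(FPKM + 1) the change was 0.13 and passed, with an adjusted p of 0.0314 (range over the alternatives that kept all samples, 0.0314 to 0.299). The counts of CCNE1 were spread over 5 transcripts, of which 0 were called. NM_001238, which encodes 410 residues, held 61.1% in control and 58.4% in 4HC, and NM_001322262, which encodes 395 residues, held 20.5% and 22.2%. XM_011527440 held 8.90% and 10.0%.

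The share of CCNE2 among the E-type cyclins was higher in every 4HC sample than in any control sample. The log2 ratio of CCNE1 to CCNE2 in CPM was 0.74, 0.71 and 0.73 in control and 0.29, 0.21 and 0.22 in 4HC, a difference of -0.49. The share of CCNE2 in the summed E-type TPM was 28.9%, 29.7% and 29.1% in control and 36.0%, 37.3% and 36.7% in 4HC, a difference of 7.41 percentage points. Both measures separated the groups fully, and each two-sided exact permutation test gave p = 0.1, the smallest value possible here. Of 5 planned pairs of relatives 3 could be tested, since CCND2 had a count of 0 in some samples, and the adjusted p over these pairs was 0.3 for CCNE1 and CCNE2. For CCND1 and CCND3 the log2 ratio differed by 0.08 (exact p = 0.9), and for CDK4 and CDK6 by 0.30 (exact p = 0.6).

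The summed E-type TPM was 50.4, 49.1 and 51.2 in control and 59.6, 61.7 and 59.7 in 4HC. The ratio of summed D-type to summed E-type TPM was 14.4, 15.6 and 14.2 in control and 10.4, 9.82 and 9.61 in 4HC. No 4HC sample reached the range of the control samples, and the two-sided exact permutation test gave p = 0.1, the smallest value possible.

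**Figure D3:**
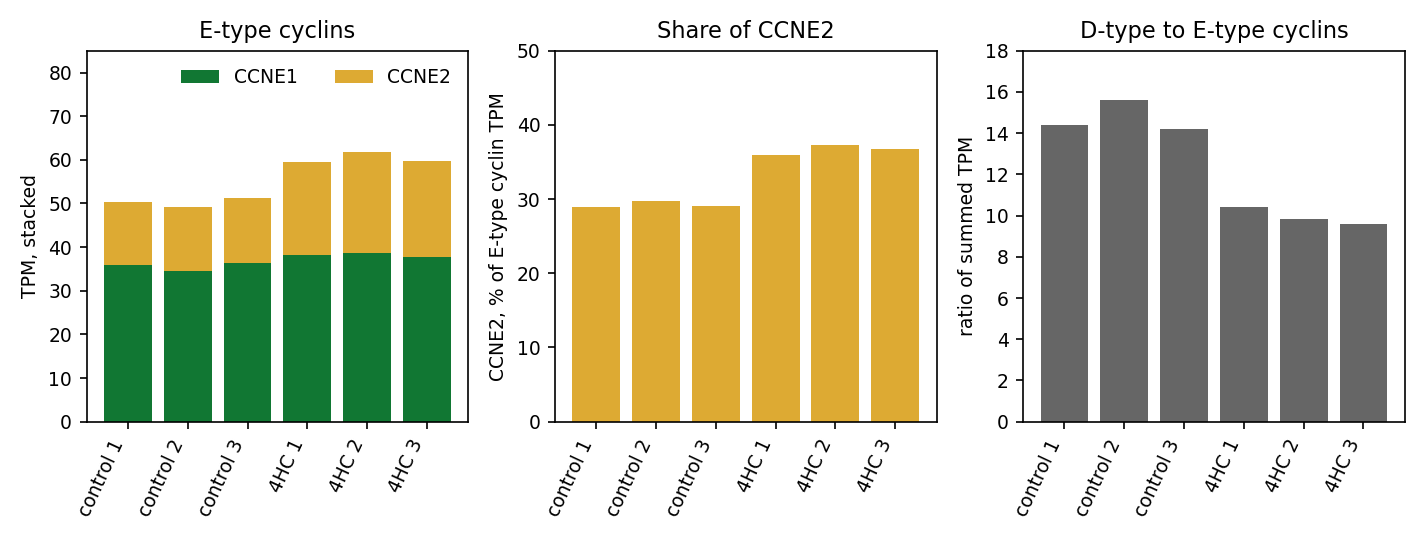
For each of the 6 samples, from left to right: TPM of CCNE1 and CCNE2 stacked, the share of CCNE2 in their sum (%), and the ratio of summed D-type to summed E-type cyclin TPM. The share of CCNE2 is 28.9% to 29.7% in control and 36.0% to 37.3% in 4HC, and the ratio is 14.2 to 15.6 in control and 9.61 to 10.4 in 4HC.

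CDK2, the kinase that the E-type cyclins activate, lies at chr12:55966830-55972789 (GRCh38). Its CPM was 90.6, 90.4 and 92.1 in control (91.0 ± 0.907, SD, n = 3) and 122, 128 and 121 in 4HC (123 ± 3.70, SD, n = 3). Every 4HC sample was above every control sample. The log2 fold change was 0.44 (SE 0.041, 95% interval 0.36 to 0.52), with an adjusted p of 7.2e-13 in edgeR. In TPM, CDK2 rose from 73.4 ± 1.37 to 98.8 ± 2.51 (SD, n = 3). NM_001798, which has 7 exons and encodes 298 residues, held 90.8% of its counts in control and 93.2% in 4HC and was called at a log2 fold change of 0.48 (SE 0.038, adjusted p of 0.009 in edgeR over all transcripts). The shorter NM_052827 of 264 residues held 5.93% and 5.02% of the counts, and its groups overlapped.

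**Figure D4:**
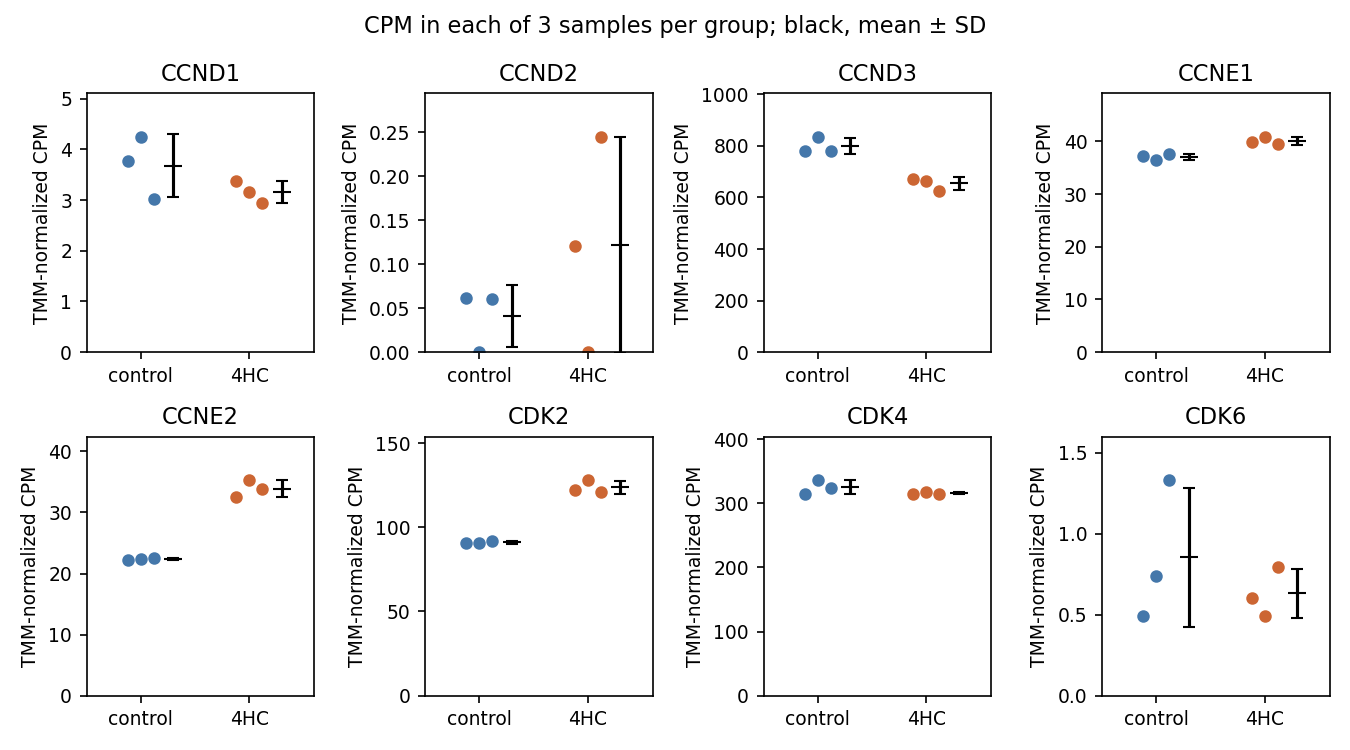
TMM-normalized CPM (vertical axes, each from 0) of the 8 members in each of 3 control and 3 4HC samples, with the mean and SD in black. CCNE2 and CDK2 sit higher and CCND3 lower in every 4HC sample, CCND1, CDK4 and CDK6 overlap, and the SD bar of CCND2, with 0 to 4 counts a sample, reaches below the axis.

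Over all members 26 transcripts were listed, 21 were tested and 3 were called, where 1.29% of all 42216 tested transcripts were called. At an unadjusted p under 0.05 there were 4 member transcripts and 4640 transcripts in all. Transcript counts varied far more between samples than gene counts, with a biological coefficient of variation of 0.724 against 0.0277. The 3 calls were less stable than those of the genes, and a transcript that missed the threshold is not shown to be unchanged. With edgeR, leaving out 1 sample gave 0 calls, except for 1 call without the third 4HC sample, and the replicate number as a block gave 0. Library size as the only scaling gave 3 calls, and a minimum of 10 counts in every sample gave 4.

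Other promoters of the members were searched as well. RefSeq windows of 250 bases before to 50 bases after the start were at hand for 4 of the 8 members (CCND3, CCNE1, CDK4 and CDK6, 7 windows in all), with none for CCND1, CCND2, CCNE2 and CDK2. The E2F words TTTCCCGC, TTTGGCGC, TTTCGCGC and TTTGCCGC, searched on both strands, had 0 matches in the 7 windows and were found in 3.3% of all promoters. Words this rare are seldom met in so few windows, and variant sites were not searched, so no lack of E2F sites is shown. CDK4 had 3 E-boxes (CACGTG, its own reverse complement), the word bound by MYC and MAX, which occurs in 7.23% of all promoters. They began 216, 196 and 101 bases before the RefSeq start. In GENCODE the counted transcript NM_000075 begins further upstream, at 57752521, so the E-boxes at 196 and 101 bases lie inside its span. CDK6 had 1 E-box, in 1 of its windows, 31 bases into the part transcribed from the RefSeq start. CCNE1 had 7 GC boxes and a GC content of 81.0%, and CDK4 and CDK6 had 3 GC boxes each. Those of CDK6 were in the same window as its E-box, and its other window had 0. NM_001259, with 98.8% of the CDK6 counts in control, begins at 92833917 in GENCODE, inside that other window. The CHR word TTTGAA and the p53 half-site had 0 matches in these windows, beside 15.2% and 6.64% of all promoters. So few windows cannot show a lack of these sites either.

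Genes whose products restrain these kinases, feed them or lie downstream of them were put in a list of 41 regulators. The RNA of 40 was tested. Of these, 16 rose, 8 fell and 16 did not pass the test, so that 60.0% were called beside 36.4% of all genes. Without the third control sample 5 regulators were called lower. Their median log2 fold change was 0.05, against 0.00 for all genes tested. The list was chosen with earlier results of these data known, so its count is no independent evidence.

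Among the inhibitors, CDKN1A, which encodes the CDK inhibitor p21, changed most. Its CPM was 220, 233 and 221 in control and 800, 786 and 764 in 4HC (log2 fold change 1.80, SE 0.033, adjusted p of 2.56e-42 in edgeR). CDKN1B, which encodes p27, fell by 0.28 on the log2 scale. The third member of this family, CDKN1C, had too few counts for a test. Of the 4 INK4 genes, whose products block CDK4 and CDK6, CDKN2C rose from 25.7 to 33.5 CPM (0.38 on the log2 scale) and CDKN2A rose by 0.20, while CDKN2B and CDKN2D did not pass the test.

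Downstream of the kinases, the pocket protein genes RB1 and RBL1 rose by 0.29 and 0.30 on the log2 scale, and RBL2 did not pass the test. Of 10 E2F and DP genes, 4 rose (E2F1, E2F2, E2F7 and E2F8) and 3 fell (E2F4, E2F5 and TFDP2). E2F7, a repressor of E2F targets, rose from 31.2 to 74.1 CPM (log2 fold change 1.25, SE 0.053), and E2F5 fell from 47.9 to 36.3 CPM (-0.40, SE 0.055). Genes of both activating (E2F1 and E2F2) and repressing (E2F7 and E2F8) factors were thus among those that rose.

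Of 5 genes for inhibitory kinases and CDC25 phosphatases 4 rose. PKMYT1, a kinase that places inhibitory phosphates on CDK1, rose from 24.8 to 39.8 CPM (log2 fold change 0.68, SE 0.063), and all 3 CDC25 phosphatase genes, whose products remove such phosphates from CDKs, rose, CDC25C by 0.31, CDC25A by 0.19 and CDC25B by 0.13. WEE1 did not pass the test. Of the 3 genes of the CDK-activating kinase, CDK7 fell by 0.18 on the log2 scale and CCNH and MNAT1 did not pass.

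Of 11 genes for cyclin turnover, 3 rose, 2 fell and 6 did not pass, so that 45.5% were called, near the 36.4% of all genes. FBXW7, whose product marks cyclin E for degradation, rose from 24.9 to 39.6 CPM (log2 fold change 0.67, SE 0.061), with 25.4, 25.8 and 23.6 CPM in control and 37.9, 39.8 and 41.2 in 4HC. FBXO4, an F-box gene linked to cyclin D1, rose by 0.31 and CKS1B by 0.11, and the cullin genes CUL1 and CUL3 fell by 0.11 each. HSP90AB1, the chaperone that works with CDC37 on CDK4, fell from 2454 to 1926 CPM (-0.35, SE 0.028), and CDC37 itself did not pass. These are RNA levels, and protein levels were not measured in these files.

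The other cyclin and CDK genes numbered 41, of which CCNH and CDK7 are also among the regulators. Of 37 tested, 7 rose and 8 fell, which is 40.5% beside 36.4% of all genes. CCNB1, the mitotic cyclin B1 gene, fell from 176 to 119 CPM (log2 fold change -0.57, SE 0.040). CCNG1, a p53 target gene, rose from 406 to 537 CPM (0.40, SE 0.031). CDK1, the mitotic kinase that can also bind E-type cyclins, rose from 587 to 701 CPM (0.26, adjusted p of 6.37e-09 in edgeR), and CCNA2, the S phase partner of CDK2, did not pass (0.09, adjusted p of 0.0984 in edgeR).

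The genes whose pattern over the 6 samples was most like that of a called member were found by Pearson's correlation of log2 CPM among 10272 genes. They are a description, since all 6 samples also share the split between control and 4HC. For CCND3 these were RBM15B (r = 0.997) and FARSA (r = 0.996), and 273 genes had r above 0.95. For CCNE2 they were UBR7 (r = 0.999) and BLVRB (r = 0.998), with 754 genes above 0.95. For CDK2 they were PBK (r = 0.999) and SNAP29 (r = 0.998), with 750 genes above 0.95.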

How the data were processed

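Total RNA of 3 control and 3 4HC-treated samples was compared, with groups taken from the labels. The deposited expected counts per gene and per transcript were estimated by the authors without normalization and need not be whole numbers. The TPM and FPKM deposited by the authors correct for length and library size. The labels and the submitters' processing notes name SOAPnuke, HISAT2, Bowtie2, RSEM 1.3.1, DESeq2 1.4.5 and GRCh38.p13, without roles. The authors' fold changes, p-values and q-values from their comparison, and a second gene table with the same values, were not used.

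After rounding, the quasi-likelihood test of edgeR 4.0.16 (R 4.3.3) was run with TMM and filterByExpr, and condition was the sole term. Adjusted p-values cover all genes, or all transcripts, tested. Single values were compared by exact permutation over samples. SD is over 3 samples. The depth of 16133786 to 16702316 expected counts per sample gives a floor of 3 counts, and intervals cover the spread between these samples. The alternatives were DESeq2 1.42.0, its size factors in edgeR, library size alone, no filter, a minimum of 10 counts, the replicate block, limma 3.58.1 on log2 of TPM or FPKM with a pseudocount of 1, or of TPM with 0.1, and leaving out each sample. The tests were first checked on simulated data, where the gene test recovered most of the changes put in and the transcript test only a minority, even of large ones. The tolerances of the transcript check were loosened after it had failed stricter ones, so transcripts that were not called carry little information. Transcripts were matched to GENCODE release 29 by RefSeq number, and Python 3.11.15 with pandas 2.3.3, scipy 1.17.1 and matplotlib 3.10.9 was used for tables and plots.

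The members and lists were chosen with earlier results of these data known. All members were named. Of the other lists, called genes with a log2 fold change of at least 0.3 in size and at least 5 CPM in either group were named, at most 3 per role. Transcripts with at least 10% of a gene's counts were named. The remaining called or paired genes of a role, the other named transcripts and CCNA2 and CDK1 were named after their values were seen.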

Additional observations from a re-analysis of the deposited data

How the results depend on the processing

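CCNE2 and CDK2 stayed higher and CCND3 stayed lower past the threshold under every alternative run. Their log2 fold changes ranged from 0.56 to 0.62, 0.42 to 0.46 and -0.30 to -0.27 over the settings that kept all samples, and from 0.56 to 0.62, 0.41 to 0.46 and -0.31 to -0.25 without 1 sample. The following values crossed a threshold, turned or moved. CCNE1 passed with limma on log2(FPKM + 1), at 0.13. CDK6 ranged from -0.71 to 0.034 without 1 sample, with 0.034 without control replicate 3. The regulators called lower numbered 5 to 8 without 1 sample, with 5 without control replicate 3. The member transcripts called numbered 0 to 1 without 1 sample, beside 3 with library size alone and 4 with a minimum of 10 counts. CCND1 ranged from -0.34 to -0.10 and CDK4 from -0.065 to -0.015 without 1 sample, neither of them called. Without control replicate 3 the small differences in family share changed sign for CCND1 (0.011 to -0.0045 percentage points), CCND3 (-0.014 to 0.00078), CDK4 (0.0083 to -0.0015) and CDK6 (-0.0083 to 0.0015). The cause was not tested. The replicate numbers did not pair the samples (correlations of deviations 0.0192, 0.0771 and 0.0216 for the same number). With the replicate block the log2 fold changes were 0.60 for CCNE2, 0.44 for CDK2 and -0.29 for CCND3, all genes called numbered 4213, and the member transcripts called numbered 0. Depth limits CCND2 and CDK6, with at most 4 and 22 counts a sample, and 3 samples a group are too few for a test of outlying samples.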
